A study of Homo sapiens with 18 samples.

Results

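Between 12 and 48 h of interferon, wild-type keratinocytes lost most of their CXCL10 and CXCL11 transcripts. Of 48 antiviral effector genes 35 fell, against 11.3% of all 13280 genes tested. IFI27, BST2, the IFITM genes, HLA-B, HLA-C and B2M rose. The comparison sets the 3 wild-type (WT) libraries kept in interferon for 48 h against the 3 kept in it for 12 h, which are 6 of the 18 libraries of the series. The libraries are defined by genotype and time alone, but the comparison was chosen with earlier results of these data known. All cells were NIKS, a spontaneously immortalized human keratinocyte line cultured over irradiated J2/3T3 mouse fibroblasts. Treated cells received human interferon alpha 2a at 25 ng/mL. The other groups are untreated WT cells (0 h) and SP100 knockout (KO) cells at 0, 12 and 48 h in the same interferon, each with 3 libraries that the labels call biological replicates. Column names of the deposited table give a single line for each genotype, Vec2 for WT and KO5 for KO, so line and genotype cannot be told apart. No untreated library of 12 or 48 h was analysed here, so 36 h more in interferon and 36 h more in culture cannot be told apart either.

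Type I interferons such as interferon alpha bind the receptor chains IFNAR1 and IFNAR2, and the kinases JAK1 and TYK2 then phosphorylate STAT proteins. STAT2 and IRF9 are subunits of ISGF3, a transcription factor complex that binds the interferon-stimulated response element (ISRE) in the promoters of interferon-stimulated genes. The products of those genes block viral replication, sense viral nucleic acids, present antigen and recruit leukocytes. Several of them, USP18 among them, act back on the receptor and dampen the signal.

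Promoters of some genes at both ends of the response held the ISRE letters. The sequences below are stretches of RefSeq promoters (GRCh38.p14, gene strand, 5′ to 3′) around each match, from within the 250 bases before the start site. Capitals mark the letters searched on both strands, GAAA and GAAA separated by any 2 bases. CXCL10 and ISG20 are shown because they fell furthest among the chemokines and the antiviral effectors, and IFIT1 as an abundant gene that fell. IFI27, BST2, IFI6 and B2M are shown as genes that rose. Only promoters with a match are shown. HLA-B, which also rose, and RSAD2, MX1 and OAS1, which fell, had no match.
CXCL10 (chr4:76023684-76023743, minus strand): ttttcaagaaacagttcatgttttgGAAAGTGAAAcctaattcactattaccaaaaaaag
ISG20 (chr15:88638922-88638981, plus strand): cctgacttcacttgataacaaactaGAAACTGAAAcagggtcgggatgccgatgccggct
IFIT1 (chr10:89392482-89392554, plus strand): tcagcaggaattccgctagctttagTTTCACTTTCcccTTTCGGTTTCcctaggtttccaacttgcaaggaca
IFI27 (chr14:94110603-94110675, plus strand): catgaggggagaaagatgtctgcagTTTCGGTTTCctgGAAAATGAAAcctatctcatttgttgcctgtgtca
BST2 (chr19:17405720-17405785, minus strand): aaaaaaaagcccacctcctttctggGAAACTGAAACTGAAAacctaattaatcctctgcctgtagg
IFI6 (chr1:27672251-27672373, minus strand): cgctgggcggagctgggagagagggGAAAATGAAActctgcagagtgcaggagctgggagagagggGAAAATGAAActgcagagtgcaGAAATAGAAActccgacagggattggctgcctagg
B2M (chr15:44711348-44711413, plus strand): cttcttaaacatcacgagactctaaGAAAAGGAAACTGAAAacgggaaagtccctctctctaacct

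In BST2 and in B2M the capitals hold 2 overlapping matches. The letters occurred in 839 of 27305 RefSeq promoters (3.07%). Among genes tested here that had a symbol and a promoter, they occurred in 229 of 9653 (2.37%). Among 7 lists of interferon genes (antiviral effectors, ISG15 conjugation, signalling, nucleic acid sensing, antigen presentation, guanylate-binding and APOL proteins, and APOBEC3 deaminases), 82 of the 113 genes tested had a promoter in the table, and 38 of these (46.3%) held a match. By direction from 12 to 48 h, the match was present in 24 of 58 genes that fell (41.4%), in 8 of 13 that rose (61.5%) and in 6 of 11 that were not called (54.5%). A match is a description of the letters and not evidence of binding.

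Expression is given in RPKM, read number corrected for gene length and library total, and errors are SD with n = 3. Changes are differences of log2(RPKM + 1), 48 h minus 12 h, and a gene was called when limma's Benjamini-Hochberg adjusted p was under 0.05 among 13280 genes. From 12 to 48 h in WT, 4772 genes were called (35.9%), of which 3267 were higher (24.6%) and 1505 lower (11.3%). A change of at least 2-fold was seen for 85 higher (0.64%) and 63 lower genes (0.474%). These counts were 267 and 117 with a pseudocount of 0.1 in place of 1, and 49 genes were higher where a mean of 5 RPKM was required. The split by direction depends on scaling. The median gene was 0.074 higher at 48 h, and with median-of-ratios scaling, which removes that shift, 2181 genes were higher (16.4%) and 2376 lower (17.9%), so that the share of higher genes went from 68.5% to 47.9%. All 1505 lower genes kept their call with scaling, as did 2181 of the 3267 higher ones. Changes named below are without scaling, and each that is called by the rule for named genes kept its sign with it. List counts are given both ways, and are to be read against these shares of all genes.

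Replicate libraries within the WT groups at 12 and 48 h correlated at 0.988 to 0.989 across genes. The total reads per library are unknown. Relative depth, recovered from low values, was 0.852 to 1.163 in the 6 libraries. Keratinocyte markers were all 14 tested, with summed levels of 16430 to 16970 RPKM at 12 h and 17450 to 18140 at 48 h. Of these, 6 fell and 1, KRT5, rose (10 and 1 with scaling), with a median change of -0.108. Of 14 fibroblast markers 4 were tested, with a sum of 360.3 to 371 RPKM at 12 h and 312.9 to 344.9 at 48 h, most of it VIM, which keratinocytes in culture also express and which changed by -0.14. COL1A1, a fibroblast collagen gene, was at 1.37 to 2.19 RPKM in the 6 libraries, FAP at 3.52 to 5.52 and MFAP5 at 34.6 to 48.5, and none of these 3 was called (MFAP5 was lower with scaling). COL6A3 and PDGFRB were in the table but too low to be tested, and the other 8 markers, COL1A2, COL3A1 and DCN among them, were not in the table analysed. Of 9 leukocyte markers CD14 and CD68 were tested, CD68 with a change of -0.46, and PTPRC was not in the table analysed. Of 7 melanocyte markers only PMEL was tested, at 0.6 to 1.57 RPKM, and of 5 endothelial markers none was in the table. The part of other cell types in the results was not tested. In bulk RNA, fewer cells of a type and less RNA per cell cannot be told apart.

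SP100, the gene targeted in the KO line, encodes a PML nuclear body protein and is itself induced by interferon. Its level in WT was 155.5, 172.1 and 150.8 RPKM at 12 h and 127.1, 123.7 and 131.2 at 48 h, against 27.9 to 31.9 in untreated cells. All 48 h libraries lay below all 12 h libraries, and SP100 fell by 0.32 ± 0.06 (SE). In KO the SP100 transcript was still present, with means of 89.1 RPKM at 12 h and 59.8 at 48 h, so the transcript level alone does not show the loss.

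The chemokine genes CXCL10 and CXCL11 had the largest falls of any named gene. CXCL10, a ligand of CXCR3, a chemokine receptor of T cells, was at 139.1, 150.6 and 132.3 RPKM at 12 h and at 1.79, 3.05 and 2.01 at 48 h, against 0.19 to 0.28 in untreated cells. CXCL11, another CXCR3 ligand, was at 332.1, 360.8 and 320.8 RPKM at 12 h and at 13.0, 18.1 and 14.5 at 48 h. No library at 48 h came near any at 12 h for either gene. CXCL10 was 61.6 times and CXCL11 22.2 times as high at 12 h, and the changes on the log2(RPKM + 1) scale were -5.45 ± 0.11 (SE) and -4.39 ± 0.11, with limma adjusted p of 3.4e-14 and 2.92e-13. In KO the changes were -5.22 for CXCL10 and -4.23 for CXCL11. TNFSF10, which encodes the death ligand TRAIL, went from 50.2 ± 1.76 RPKM to 21.3 ± 0.976.

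Of 19 chemokine and cytokine genes tested, 8 fell and 5 rose (9 and 4 with scaling). The part that rose is near the 24.6% of all genes tested, and 11.3% of all genes fell. The 5 that rose were CXCL14, CCL20 and 3 cytokines of the interleukin 1 family. CXCL14, which skin epithelium makes without stimulation, was at 8.45, 7.04 and 7.11 RPKM at 12 h and at 12.3, 18.7 and 17.3 at 48 h, a rise of 0.99 ± 0.13 (SE). IL1B rose by 0.65, IL18 by 0.64 and IL1A by 0.60. CCL20, which attracts dendritic cells, rose by 0.38 but was not called with scaling.

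**Figure D1:**
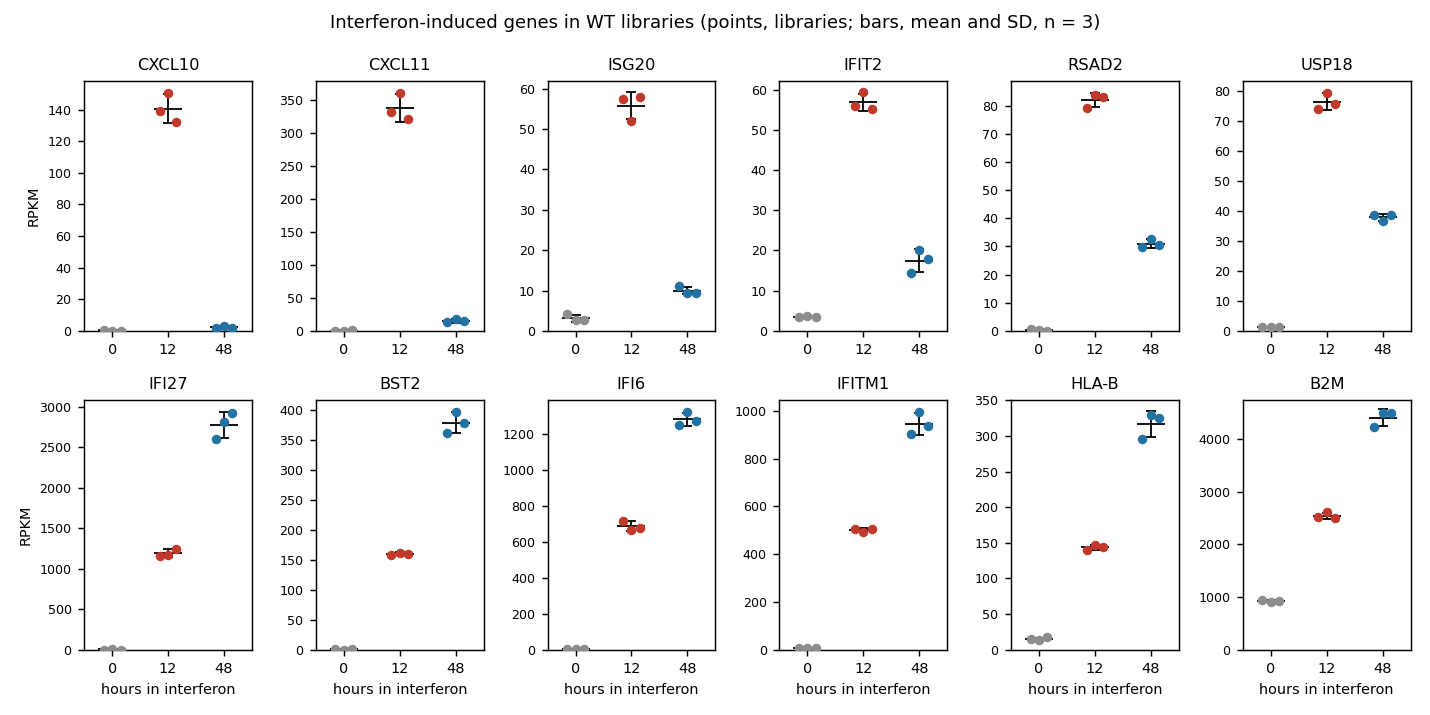
Level in RPKM (vertical axes, linear, each from 0) against hours in interferon alpha 2a (horizontal) for 12 interferon-induced genes in the WT libraries; points are libraries, and bars are the mean and SD of 3. In the upper row the 48 h points lie below the 12 h points in every panel, and CXCL10 went from 140.7 to 2.28 RPKM; in the lower row they lie above, and BST2 went from 160.2 to 379.5 RPKM.

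Antiviral effectors moved in both directions. Of 48 tested, 35 fell, 9 rose and 4 were not called (36, 7 and 5 with scaling), and their median change was -0.467 against 0.074 for all genes. Their summed level, to which abundant genes add most, was higher at 48 h. It was 9619 to 9766 RPKM at 12 h and 11100 to 11560 at 48 h, against 623.5 to 639.6 untreated. ISG20, an RNA exonuclease, was at 57.5, 52.0 and 57.9 RPKM at 12 h and at 11.0, 9.45 and 9.46 at 48 h, with a change of -2.37 ± 0.14 (SE). IFIT2, which binds viral RNA, was at 56.0, 59.3 and 55.2 RPKM at 12 h and at 14.4, 20.1 and 17.9 at 48 h, with a change of -1.66. RSAD2, which makes the chain terminator ddhCTP, was at 79.1, 83.8 and 83.0 RPKM at 12 h and at 29.7, 32.6 and 30.6 at 48 h, with a change of -1.38. In all 3 genes the groups lay apart, though IFIT2 ranged from 14.4 to 20.1 RPKM among the 48 h libraries.

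IFIT1, MX1 and the oligoadenylate synthetases also fell, and at 48 h stayed far above their untreated level. IFIT1, which binds RNA lacking a 2′-O-methylated cap, was at 617.7, 649.7 and 613.1 RPKM at 12 h and at 268.6, 276.9 and 269.6 at 48 h, against 4.32 ± 0.72 in untreated cells. MX1, a GTPase that traps viral nucleocapsids, had a mean of 580.2 RPKM at 12 h, 356.3 at 48 h and 0.317 untreated. The oligoadenylate synthetases, which activate RNase L, changed by -0.83 for OAS1, -0.47 for OAS2 and -0.29 for OAS3, and the related OASL by -1.21. SAMD9 changed by -0.71 and DDX60L by -1.30, while DDX60, its neighbour in the same family, had means of 159 RPKM at 12 h and 166.6 at 48 h and was not called.

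The 9 antiviral effectors that rose were led by small membrane proteins. BST2, or tetherin, which holds budding virions at the cell surface, was at 157.9, 162.1 and 160.5 RPKM at 12 h and at 362.8, 397.6 and 378 at 48 h, with a rise of 1.24 ± 0.11 (SE, limma adjusted p = 4.71e-07). IFI27, a small protein of intracellular membranes, was at 1155, 1167 and 1249 RPKM at 12 h and at 2604, 2812 and 2923 at 48 h, with a rise of 1.22 ± 0.18. Every 48 h library exceeded every 12 h library for both genes, and both had been at or below 2.75 RPKM in untreated cells.

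IFITM1, IFITM2 and IFITM3, which restrict virus entry at membranes and are close paralogs whose reads could be shared, rose by 0.91, 0.48 and 0.69. IFITM1 was at 503.9, 493.7 and 506.1 RPKM at 12 h and at 904.8, 997.2 and 935.5 at 48 h. IFI6 was at 716.1, 663.4 and 677.9 RPKM at 12 h and at 1249, 1323 and 1269 at 48 h, a rise of 0.90. IFI44L rose by 0.49. CMPK2, the genomic neighbour of RSAD2, rose by 0.25 and TRIM34 by 0.18, and neither was called with scaling.

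The ISG15 genes fell together. ISG15 is a ubiquitin-like modifier that is attached to proteins by UBA7, UBE2L6 and HERC5 and removed by USP18, and all 6 genes of the list fell with and without scaling. ISG15 itself was at 1118, 949.9 and 1019 RPKM at 12 h and at 654.9, 649.7 and 715.1 at 48 h. USP18, which also blocks the receptor at IFNAR2, was at 74.0, 79.5 and 75.9 RPKM at 12 h and at 38.6, 36.6 and 38.7 at 48 h, with a change of -0.99 ± 0.05 (SE). USP18 had been at 1.26 to 1.36 RPKM untreated, so its 48 h level stayed well above that.

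The signalling genes differed among themselves. Of 12 tested, 6 fell and 2 rose (7 and 1 with scaling). STAT2 changed by -0.45, and IRF7, the regulator that amplifies interferon production, by -0.80, from 28.4 ± 1.57 to 15.9 ± 0.838 RPKM. IRF9, the DNA-binding subunit of ISGF3, was at 73.4, 71.3 and 71.7 RPKM at 12 h and at 72.6, 76.9 and 68.2 at 48 h, with groups that overlap and a change of 0.01 ± 0.11 (SE) that was not called. The receptor chains went the other way. IFNAR2 rose by 0.35, and IFNAR1 rose by 0.22 but was not called with scaling. Among 11 genes listed as negative regulators, USP18 fell and 4 rose (1 and 1 with scaling). TRIM8, a ubiquitin ligase, rose by 0.69, and SOCS2 and PTPN6 lost their call with scaling. The place of TRIM8 among negative regulators is uncertain, so its rise is not read as a rise of inhibitors.

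Genes of nucleic acid sensing, a list of sensors with adaptors and other partners, fell or were not called. Of 12 tested, 9 fell and none rose, with and without scaling. MYD88, the adaptor of Toll-like receptors, was at 55.0, 56.2 and 53.8 RPKM at 12 h and at 24.0, 22.3 and 20.6 at 48 h, with a change of -1.27 ± 0.05 (SE). RIGI, the sensor of short double-stranded RNA ends, was at 175.9, 184.9 and 174.5 RPKM at 12 h and at 100.1, 100.5 and 99.2 at 48 h, a change of -0.83. IFIH1, which encodes MDA5, changed by -0.61 and TLR3 by -0.63. CGAS and TBK1 were not called.

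Of 23 antigen presentation genes 11 fell, 5 rose and 7 were not called (12, 5 and 6 with scaling). The part that rose is near the 24.6% of all genes tested, and 11.3% of all genes fell. The summed level of the list, to which abundant genes add most, went from 5571 to 5741 RPKM at 12 h to 7190 to 7554 at 48 h. Genes of some class I heavy chains and of their light chain were among those that rose. HLA-B was at 140.1, 146.7 and 143.6 RPKM at 12 h and at 296, 329.4 and 324.6 at 48 h, a rise of 1.14 ± 0.07 (SE). HLA-C rose by 0.47. B2M was at 2509, 2609 and 2498 RPKM at 12 h and at 4218, 4497 and 4488 at 48 h, a rise of 0.79. HLA genes are polymorphic and alike in sequence, so reads may be split among them. The non-classical heavy chain gene HLA-E changed by -0.32, and HLA-F was not called.

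Several genes that make and load peptides were among those that fell. NLRC5, the class I transactivator, changed by -0.96, from 18.3 ± 1.74 to 8.85 ± 0.406 RPKM. The peptide transporter genes TAP1 and TAP2 changed by -0.71 and -0.82, the immunoproteasome subunit genes PSMB10 and PSMB9 by -0.78 and -0.35, and the peptidase genes ERAP1 and ERAP2 by -0.40 and -0.42. PSMB8, the remaining immunoproteasome catalytic subunit, had means of 98.6 RPKM at 12 h and 100.5 at 48 h and was not called. The RNA HCP5, encoded in the HLA region, rose by 1.58.

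Genes of guanylate-binding proteins and APOL proteins fell in 7 of 8 cases tested (8 of 8 with scaling), with a median change of -0.716. GBP1 was at 32.1, 35.3 and 32.5 RPKM at 12 h and at 14.2, 15.8 and 15.1 at 48 h, with a change of -1.10. Of 4 APOBEC3 cytidine deaminase genes, APOBEC3G and APOBEC3F fell and APOBEC3C rose by 0.18, the last not called with scaling. Among 16 genes of PML bodies and the HIRA histone chaperone, 6 fell and 4 rose (6 and 1 with scaling). The part that rose is near the 24.6% of all genes tested, and 11.3% of all genes fell. PML changed by -0.53, and the SP100 relatives SP110 and SP140L by -0.44 and -0.63. DAXX and ATRX, which deposit a replacement histone, were not called.

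Cell death genes were lower at 48 h in 9 of 19 cases and higher in 3 (12 and 1 with scaling). MLKL, the pore former of necroptosis, was at 28.7, 27.1 and 25.2 RPKM at 12 h and at 13.2, 13.1 and 12 at 48 h, with a change of -1.02. The pyroptosis genes GSDMD and CASP1 changed by -0.59 and -0.48. BCL2L1, which opposes apoptosis, rose by 0.44.

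Stress and metabolic genes changed as well. ATF4 drives genes of amino acid synthesis and uptake when amino acids are short or translation initiation is slowed, whereas ATF6 and XBP1 drive endoplasmic reticulum chaperones. Of 34 genes on a joint list, 15 rose and 10 fell (12 and 12 with scaling), and the list median of 0.053 was -0.027 with scaling. These 2 arms were not tested as separate lists. ASNS, asparagine synthetase, was at 14.8, 14.7 and 16.0 RPKM at 12 h and at 40.8, 48.0 and 44.2 at 48 h, with a rise of 1.49 ± 0.06 (SE, limma adjusted p = 8.37e-11). The serine synthesis genes PHGDH and PSAT1 rose by 1.09 and 1.07, the cystine transporter gene SLC7A11 by 1.33, the glutathione-degrading CHAC1 by 1.34, and ATF4 itself by 0.38.

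On the same list, HSPA5, which encodes BiP, was at 421.5, 445.6 and 425.4 RPKM at 12 h and at 286.6, 249.7 and 260.8 at 48 h, with a change of -0.70 ± 0.05 (SE). DNAJC3 changed by -0.59, SDF2L1 by -0.57 and MANF by -0.48. ATF5, a transcription factor that ATF4 induces, went with these at -0.46, and the chaperone-like EDEM1 rose by 0.15 but was not called with scaling. Untreated cells had a mean of 254.4 RPKM for HSPA5 and 29.2 for ASNS, so the 48 h level of HSPA5 lay near the untreated level while that of ASNS lay above it. The promoter stretches of these genes are shown because they hold the letters named for each arm: in ASNS and CHAC1 the capitals mark TGATGNAA, the C/EBP-ATF response element (CARE), and in HSPA5 the endoplasmic reticulum stress element (ERSE), CCAAT and CCACG separated by 9 bases. Both were searched on both strands. The RefSeq start of HSPA5 lies upstream of the start of its GENCODE 29 transcript, and the stretch shown lies before both.
ASNS (chr7:97872444-97872501, minus strand): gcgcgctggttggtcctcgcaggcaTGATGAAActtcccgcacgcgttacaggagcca
CHAC1 (chr15:40953237-40953294, plus strand): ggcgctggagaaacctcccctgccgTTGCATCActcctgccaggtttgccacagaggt
HSPA5 (chr9:125241366-125241434, minus strand): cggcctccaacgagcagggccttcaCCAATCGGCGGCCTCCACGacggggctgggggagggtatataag

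The CARE letters occurred in 3.19% of all 27305 promoters and in 1.39% of those of genes tested with a symbol. They occurred in 3 of 31 list members with a promoter, 2 of them among the 12 that rose (16.7%) and 1 among the 10 that fell (10.0%). The ERSE letters occurred in 0.0806% of all promoters and in 0.135% of those of genes tested with a symbol. They occurred in 4 of 31 list members, 3 of them among the 10 that fell and 0 among the 12 that rose.

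**Figure D2:**
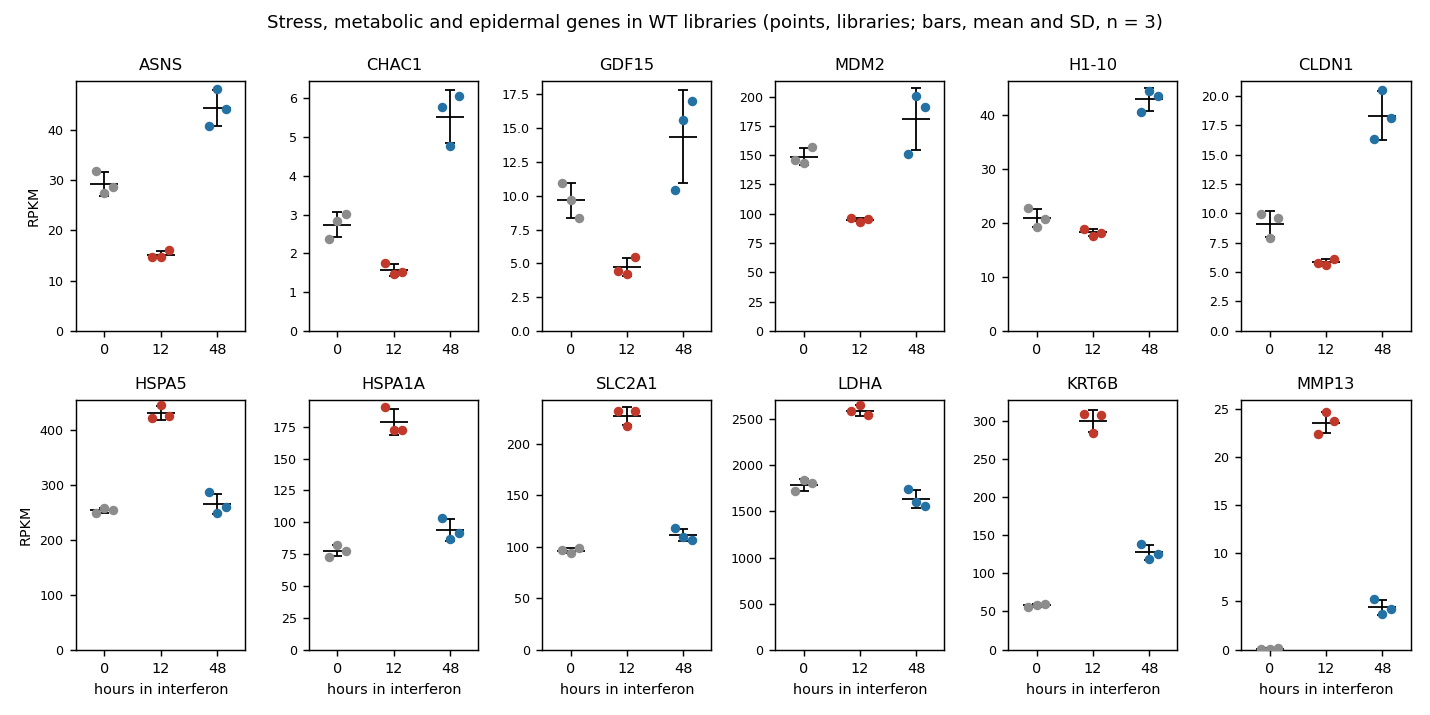
Level in RPKM (vertical axes, linear, each from 0) against hours in interferon alpha 2a (horizontal) for 12 stress, metabolic and epidermal genes in the WT libraries; points are libraries, and bars are the mean and SD of 3. In the upper row the 48 h points lie above the 12 h points, as for H1-10 at 42.9 against 18.2 RPKM; in the lower row they lie below, as for SLC2A1 at 111.7 against 227.1 RPKM.

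Targets of p53 and inhibitors of the cell cycle rose in 15 of 19 cases and fell in none (14 and 1 with scaling), with a median change of 0.402. Summed, they were at 493.1 to 512.6 RPKM at 12 h, 656.2 to 738.7 at 48 h and 624.3 to 650.6 untreated. MDM2, which encodes the ubiquitin ligase of p53, was at 96.0, 93.2 and 95.4 RPKM at 12 h and at 150.8, 200.8 and 191.5 at 48 h, a rise of 0.91. ZMAT3, an RNA-binding p53 target, rose by 1.01 and the stress cytokine GDF15 by 1.41, while CDKN1A, which encodes p21, rose by 0.40. All 3 libraries at 48 h exceeded all at 12 h for MDM2, GDF15 and ZMAT3. For MDM2 and GDF15 the first 48 h library was the lowest of its group, at 150.8 and 10.5 RPKM.

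Glycolysis and hypoxia genes fell in 21 of 28 cases and rose in 2 (24 and 1 with scaling), with a median change of -0.346. Their summed level was 14750 to 14950 RPKM at 12 h, 11100 to 11930 at 48 h and 11840 to 12400 untreated. SLC2A1, the glucose transporter GLUT1, was at 231.9, 217.1 and 232.3 RPKM at 12 h and at 118.4, 109.9 and 106.7 at 48 h, with a change of -1.02 ± 0.05 (SE). EGLN3, an oxygen-sensing hydroxylase, changed by -1.21, NDRG1 by -1.01 and BNIP3, a mitophagy receptor, by -0.85. LDHA changed by -0.67, from 2596 to 1633 RPKM. VEGFA, also a hypoxia target, rose by 0.33. ANGPTL4, a lipase inhibitor outside the list, was among the largest falls at -1.94.

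Nuclear genes for subunits of oxidative phosphorylation rose in 53 of 79 cases and fell in none (30 and 0 with scaling), with a median of 0.202 and 0.118 with scaling. The largest rise was NDUFA5, a complex I subunit, at 0.54. Of the 13 protein genes of the mitochondrial genome none rose and 4 fell (5 with scaling), and their summed level was uneven among replicates, from 25800 to 38000 RPKM at 12 h and from 18600 to 34170 at 48 h. MT-ND1 was at 1695, 1126 and 1577 RPKM at 12 h and at 1310, 927.3 and 701.4 at 48 h, so the groups overlap. In KO none of the 13 was called.

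Protein quality control genes were in part lower at 48 h than at 12 h. Heat shock and folding genes fell in 13 of 21 cases and rose in none (15 and 0 with scaling). Their summed level was 9570 to 9956 RPKM at 12 h and 7592 to 8091 at 48 h, against 7471 to 7846 in untreated cells. HSPA1A, an inducible HSP70 gene nearly identical to HSPA1B, was at 190.2, 172.3 and 172.7 RPKM at 12 h and at 103.2, 87.1 and 91.3 at 48 h, with a change of -0.92. HSPA8, the constitutive HSP70, changed by -0.68 and its co-chaperone gene DNAJA1 by -0.63. Proteasome core and cap subunits fell in 16 of 33 cases and rose in 1 (26 and 1 with scaling), led by PSMD2 at -0.37. Summed, they were at 4414 to 4616 RPKM at 12 h, 3998 to 4055 at 48 h and 3924 to 3943 untreated.

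Genes of ribosome biogenesis fell in 18 of 39 cases and rose in 1 (25 and 1 with scaling), with UTP20 at -0.41 and NOP56 at -0.32, both needed to process ribosomal RNA. The list summed to 7001 to 7174 RPKM at 12 h, 6166 to 6549 at 48 h and 6234 to 6609 untreated. The 83 cytosolic ribosomal protein genes shifted with the scaling: 28 rose and 2 fell, but 9 and 6 with it, and their median went from 0.069 to -0.015. Cytosolic tRNA synthetases rose in 11 of 18 cases and fell in 3 (9 and 5 with scaling). AARS1 rose by 0.57 and MARS1 by 0.49, whereas WARS1, a tryptophanyl-tRNA synthetase that interferons induce, changed by -0.79, from 253.5 to 146.6 RPKM.

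Lipid synthesis genes that were called were mostly higher. Of 24 cholesterol synthesis genes 13 rose and none fell (8 and 1 with scaling), and of 13 fatty acid genes 7 rose and 2 fell (5 and 2 with scaling). The cholesterol genes summed to 724.6 to 736.6 RPKM at 12 h, 854.9 to 883.8 at 48 h and 812.6 to 844.8 untreated. The fatty acid genes summed to 665.1 to 685.9 RPKM at 12 h, 765.7 to 801.6 at 48 h and 736.7 to 748.7 untreated. INSIG1, which retains SREBP in the endoplasmic reticulum, was at 3.59, 3.48 and 3.92 RPKM at 12 h and at 6.42, 5.68 and 6.2 at 48 h, a rise of 0.61, with the groups apart. Further rises were those of the squalene synthase gene FDFT1 by 0.59 and the acetyl-CoA synthetase gene ACSS2 by 0.96. SQLE, also sterol-regulated, was not called.

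**Figure D3:**
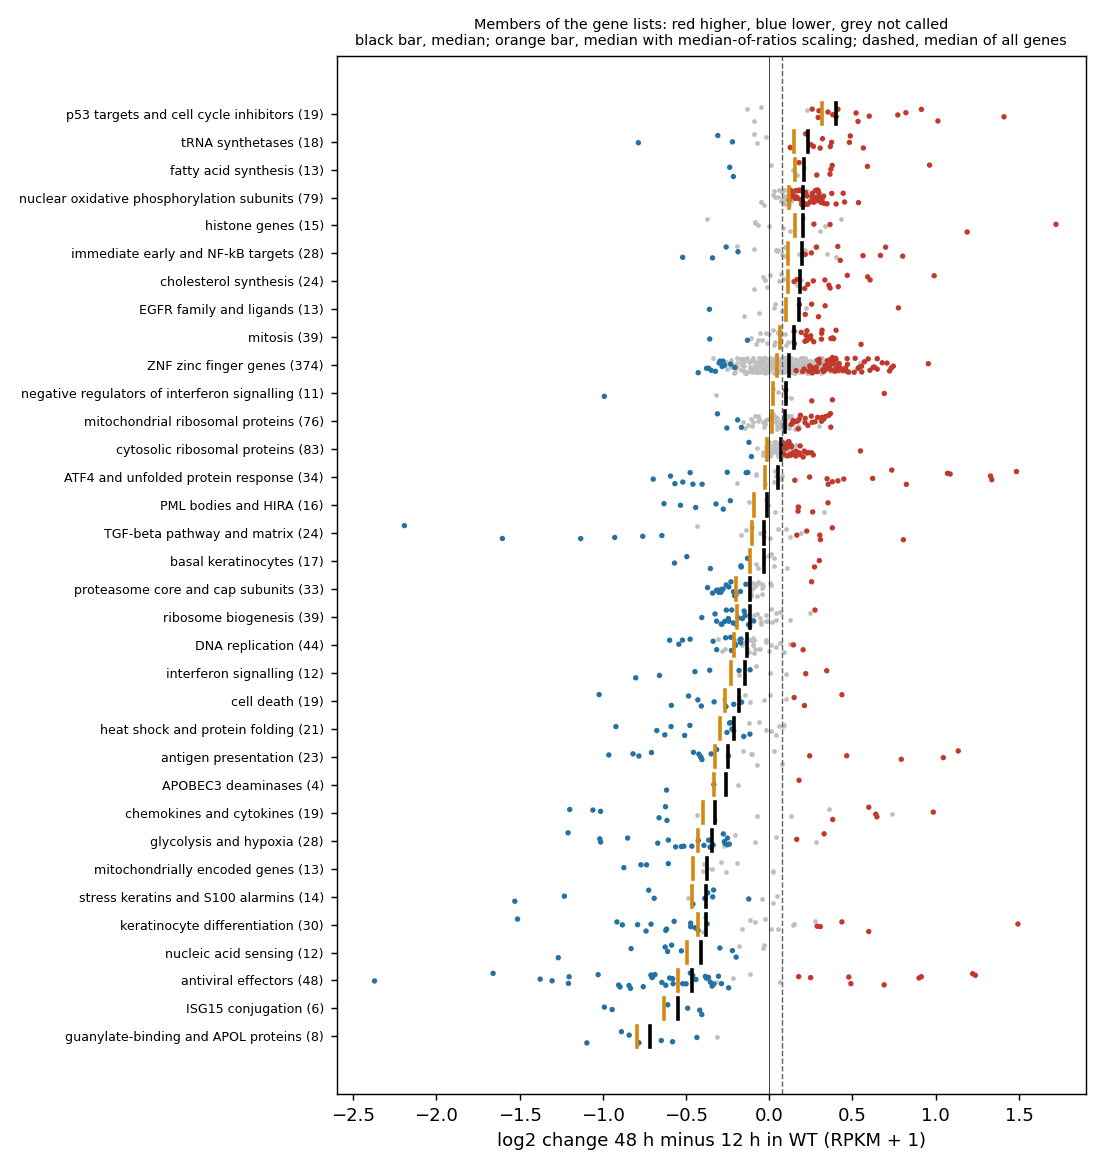
Change from 12 to 48 h in WT (horizontal axis, difference of log2(RPKM + 1)) of every tested member of 34 gene lists (rows, number tested in brackets); red points rose, blue points fell and grey points were not called, black and orange bars are medians without and with scaling, and the dashed line is the median of all genes. Medians run from -0.716 for guanylate-binding and APOL proteins to 0.402 for p53 targets; 2 members, CXCL10 and CXCL11, lie beyond the left edge.

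Keratinocyte genes of wounding and barrier formation were mostly lower where called. Stress keratins and S100 alarmins fell in 10 of 14 cases and rose in none (11 and 0 with scaling). Their summed level was 17860 to 18300 RPKM at 12 h, 13850 to 14480 at 48 h and 13490 to 14230 untreated. KRT6B, a keratin of wounded and hyperproliferative epidermis, was at 309.3, 283.6 and 307.4 RPKM at 12 h and at 138.2, 118.6 and 125.6 at 48 h, with a change of -1.23. KRT6C changed by -1.53, and reads of the KRT6 genes may be shared among these close paralogs. The alarmin gene S100A8 changed by -0.72.

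Differentiation genes fell in 14 of 30 cases and rose in 5 (16 and 5 with scaling). Summed, they were at 1081 to 1142 RPKM at 12 h, 933.4 to 962.4 at 48 h and 942.1 to 1006 untreated. SPRR2D, a cornified envelope precursor with near-identical paralogs, changed by -1.51, IVL, which encodes involucrin, by -0.74 and OVOL1, a transcription factor of differentiation, by -0.88. CLDN1, a tight junction gene, went against these and was at 5.8, 5.57 and 6.14 RPKM at 12 h and at 16.3, 20.5 and 18.1 at 48 h, a rise of 1.49 ± 0.09 (SE). The early differentiation keratins KRT1 and KRT10 rose by 0.60 and 0.31. KRT1 lost its call under 4 alternatives, the fit on the compared libraries alone among them. Among 17 basal genes 6 fell and 2 rose (8 and 1 with scaling). The laminin genes LAMB3 and LAMA3 changed by -0.57 and -0.50, KRT5 rose by 0.27, and KRT14 and TP63 were not called.

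Matrix proteases and matrix proteins were among the largest falls. MMP13, a collagenase, was at 22.4, 24.6 and 23.7 RPKM at 12 h and at 5.25, 3.74 and 4.23 at 48 h, against 0.08 to 0.12 untreated, with a change of -2.19 ± 0.10 (SE). TNC, the wound matrix protein tenascin C, was at 31.8, 32.6 and 33.7 RPKM at 12 h and at 11.4, 9.11 and 9.9 at 48 h, a change of -1.60. MMP1 changed by -1.13 and PLAUR, the urokinase receptor, by -0.93. INHBA, which encodes a subunit of activin A, rose by 0.81. In this list of TGF-beta and matrix genes 6 of 24 fell and 6 rose (7 and 5 with scaling). The part that rose is near the 24.6% of all genes tested, and 11.3% of all genes fell. Of 13 genes of the EGFR family and its ligands 6 rose and 1 fell (3 and 1 with scaling), with AREG, the autocrine ligand amphiregulin, up by 0.78 from 394.7 to 676.7 RPKM. The EGFR list summed to 738 to 766.4 RPKM at 12 h, 1024 to 1117 at 48 h and 1020 to 1047 untreated.

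The cell cycle lists diverged. DNA replication genes fell in 14 of 44 cases and rose in 2 (28 and 0 with scaling). ORC1, the origin recognition subunit, was at 19.4, 19.7 and 19.4 RPKM at 12 h and at 12.7, 12.4 and 12.6 at 48 h, with a change of -0.60. Mitotic genes rose in 20 of 39 cases and fell in 2 (14 and 4 with scaling). PTTG1, which encodes securin, was at 108.2, 111.1 and 112.6 RPKM at 12 h and at 156, 165.6 and 166.4 at 48 h, a rise of 0.55. CDC20, the activator of the anaphase-promoting complex, changed by -0.36. MKI67 and PCNA were not called.

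H1-10, a linker histone gene, was at 18.9, 17.6 and 18.1 RPKM at 12 h and at 40.6, 44.5 and 43.5 at 48 h, a rise of 1.19 ± 0.07 (SE, limma adjusted p = 4.08e-09). Its untreated mean was 20.9 RPKM. Of 15 histone genes tested 4 rose and none fell, with and without scaling, and the linker histone gene H1-2 was not called. Of all genes tested 24.6% rose and 11.3% fell (16.4% and 17.9% with scaling). Without scaling, the count of histone genes that rose is near the share of all genes.

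Further genes with large rises were NGFR, a neurotrophin receptor, at 1.65, the stress-induced NUPR1 at 1.64, ARRDC4, an arrestin-domain gene that responds to glucose through MondoA, at 1.61, and PADI3, a peptidylarginine deiminase of the hair follicle and epidermis, at 1.60. NGFR was at 1.11, 1.27 and 1.31 RPKM at 12 h and at 4.68, 6.54 and 6.99 at 48 h, against 7.42 to 9.43 untreated. ETNK2 rose by 1.56, and LINC02434 rose from 0.893 to 4.34 RPKM. MT2P1, JMJD7 and DNAJC25-GNG10 also passed the rule for the largest rises, but reads of a pseudogene, or of genes with readthrough transcripts, may be shared with a parent or neighbouring gene, which was not tested. JMJD7 was at 2.85, 13.3 and 1.47 RPKM at 48 h, where a single library was far above the others. Large falls outside the lists were TAGLN at -1.92 and TUBB3 at -1.86, both of the cytoskeleton, CYB5R2 at -1.75, SECTM1 at -1.71 and the adhesion gene CEACAM1 at -1.65.

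**Figure D4:**
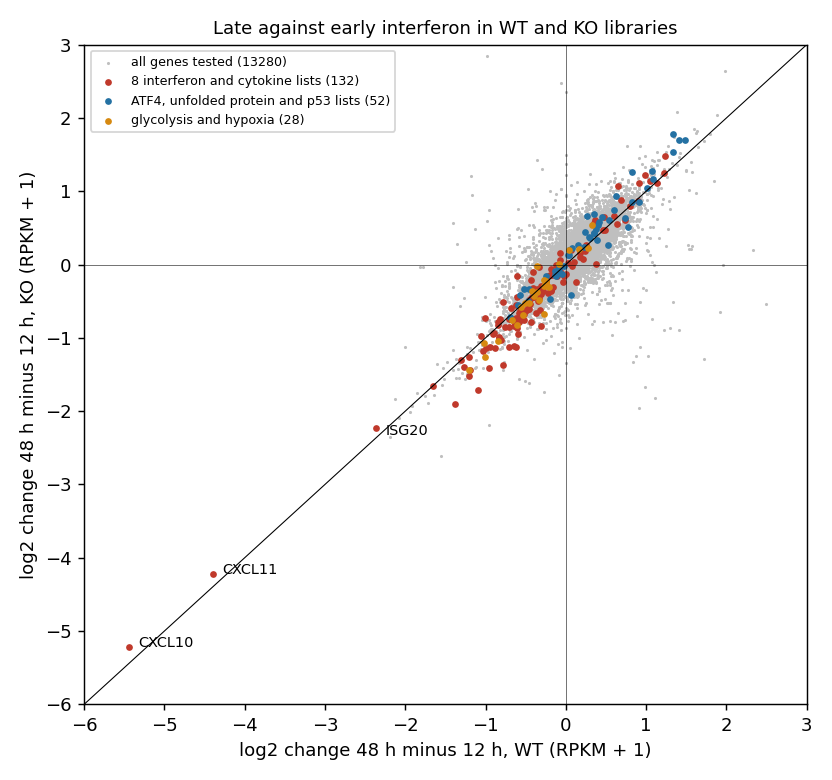
Change from 12 to 48 h in KO (vertical axis) against that in WT (horizontal axis), both as differences of log2(RPKM + 1), for 13280 genes (grey), 132 genes of the interferon and cytokine lists (red), the ATF4, unfolded protein and p53 lists (blue) and glycolysis and hypoxia (orange); the diagonal marks equal change. CXCL10, at -5.45 in WT and -5.22 in KO, lies close to the diagonal, as do CXCL11 and ISG20.

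The same times were compared in KO, whose 6 libraries are separate from those of WT. In KO 5538 genes were called (41.7%), 3678 higher (27.7%) and 1860 lower (14.0%). Of the 85 genes at least 2-fold higher in WT, 69 (81.2%) were called higher in KO, and of the 63 at least 2-fold lower, 58 (92.1%) were called lower, with none called in the opposite direction in either set. Across 13280 genes, Pearson's r between the change in WT and that in KO was 0.759 and Spearman's rho 0.772, as a description over genes, which are not independent replicates.

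The difference between the genotypes' changes was then tested for every gene by limma, and 0 of 13280 genes were called (0.0%), with 904 at an unadjusted p under 0.05. The smallest adjusted p was 0.107, for GBP1, which changed by -1.10 in WT and by -1.71 in KO, a difference of 0.62 ± 0.10 (SE). GBP1 ended at 14.2, 15.8 and 15.1 RPKM in WT and at 9.37, 8.55 and 10.2 in KO, with groups apart. In a fit on the compared libraries alone RSAD2 was called, and without a variance trend CLMP was, with differences of 0.52 and 0.62. In the fit over all libraries, none of the changes is shown to be particular to WT, and a p over the threshold does not show that they are equal.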

How the data were processed

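The authors deposited a table of RPKM values with 16472 Ensembl gene IDs and 18 sample columns, rounded to 2 decimals. Per the submitters' processing notes, cutadapt, STAR 2.6.1, RSEM 1.3.0, limma 3.50.3 and the build hg19 were used; their roles and the annotation are not given in the sources used here. Stranded mRNA libraries were made, per the labels' protocols. RPKM is not a count, so no count model was fitted. Symbols were found for 14576 IDs. Values were taken as log2(RPKM + 1). Genes reaching an RPKM of 1 in 3 libraries or more entered limma 3.58.1 (R 4.3.3), with all 18 libraries, 6 group means, variances moderated towards a mean trend and Benjamini-Hochberg adjustment. The code was tested on simulated data.

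The comparison and the gene lists were chosen with earlier results of these data known. Lists defined by name patterns were limited to protein-coding genes after their members had been seen. Named were SP100, the 12 largest rises and 12 largest falls with groups apart, and up to 3 per list and direction; other list members were named for their role after their values were seen. Some genes that the rule selects are not reported here. Replicate numbers were not used as pairs in the main fit. Deviations of same-numbered WT libraries correlated at -0.049 to 0.027, so no shared replicate effect was seen. That does not show that the libraries are unpaired. P-values measure the spread between libraries labelled as biological replicates. Alternatives were a pseudocount of 0.1, median-of-ratios scaling, no filter, a filter at a mean of 5 RPKM, the compared libraries alone, no variance trend, a replicate block and leaving out each library. Promoter coordinates are GRCh38.p14, from RefSeq, and not the build of the notes.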

Additional observations from a re-analysis of the deposited data

Results flagged for a closer look

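RFC5, a subunit of the clamp loader of DNA replication, moved in opposite directions in the 2 genotypes. In WT it was at 20.8, 22.2 and 19.6 RPKM at 12 h and at 22.9, 23.2 and 23.4 at 48 h, a rise of 0.15 (limma adjusted p = 0.0415). In KO it was at 24.1, 21.7 and 22.5 RPKM at 12 h and at 21.5, 21.0 and 20.8 at 48 h, a change of -0.10 that was not called. The groups lay apart in both genotypes, and the difference of 0.25 ± 0.07 (SE) had a limma adjusted p of 0.555, so it did not pass the test. The rise in WT was lost under 7 of the alternatives, scaling among them.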

How the results depend on the processing

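Median-of-ratios scaling gave 2376 lower genes in WT in place of 1505, and turned the median of the ATF4 and unfolded protein list to -0.027 and that of the cytosolic ribosomal proteins to -0.015. The counts of genes changed by at least 2-fold depend on the treatment of low values: a pseudocount of 0.1 gave 267 higher and 117 lower genes, and a mean RPKM of at least 5 gave 49 higher. The genotype difference was called for 1 gene in the fit on the compared libraries alone, RSAD2, and for 1 without a variance trend, CLMP. Leaving out a library in turn gave 3791 to 4574 called genes in WT (2568 to 3114 higher, 1178 to 1460 lower), 68 to 114 at least 2-fold higher and 57 to 71 at least 2-fold lower, 4739 to 4969 called genes in KO and 0 for the difference. With the replicate number as a block, 4581 genes were called in WT, 4511 of them called without it, 5363 in KO and 0 for the difference. Of 2255 values of 175 named genes under these alternatives, 2143 kept their call, 112 in 30 genes lost it and 0 changed sign. MRPL41 (10 alternatives), COL7A1 (9), FOSL1 (8), IFNAR1 (7) and RFC5 (7) lost it most often. Depth is known only as relative depth, so no counting interval or detection limit is given.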
